A study of Mus musculus with 4 samples.

Results

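Fibroblast-like cells of the adult mouse prostate were picked out of single-cell RNA-seq libraries that had been made from sorted EPCAM+ cells. The members were chosen by measured values: a cell with 750 to 7500 detected genes and under 10% mitochondrial UMIs was a member where *Col1a1* and *Col3a1*, the genes of the main chains of collagens I and III, together gave at least 10 of every 10000 UMIs, and where *Ptprc*, the pan-leukocyte gene, had no UMI. A sample barcode was not needed. This gave 159 cells, 84 from run 1, 50 from run 2 and 25 from run 3, of 8532 kept adult cells and of 11674 adult cells in all. The whole series, with an embryonic explant library, holds 19148 cells. Because the rule used the expression of these cells, every contrast between members and other cells is a description and has no test.

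All adult mice were of the ICR (CD-1) strain, over 8 weeks old, and carried P2-*Runx1*:RFP, a reporter in which red fluorescent protein is made from the proximal promoter of *Runx1*. The anterior lobe (AP), the dorsolateral lobes (DLP) and the ventral lobe (VP) were taken apart, and the RFP+ and RFP- fractions of each were tagged with MULTI-seq barcodes before pooling. Runs 1 and 2 held prostates of intact mice and of mice castrated over 4 weeks earlier, the castrated lobes of run 1 being pooled, and run 3 held intact mice only. Mice were pooled within each run, so a run is 1 sample. In runs 1 and 2 the barcode of intact DLP RFP+ cells did not work, and such cells carry no call there. The explant library pooled E15.5 urogenital sinuses that had not been cultured (D0) with explants taken at D1, D3 and D6 of culture in dihydrotestosterone.

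Fibroblasts lie under the prostate epithelium and make the collagens, proteoglycans and elastic fibres of the stroma. In the developing gland the mesenchyme guides the growth of the epithelium through secreted factors. Other stromal cells, above all smooth muscle, surround the ducts, and a sort on EPCAM, an epithelial surface protein, removes most stroma.

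Total depth was 35051876, 86381807 and 40087244 UMIs in runs 1, 2 and 3. Members had a median of 7495, 7712.5 and 8946 UMIs per cell in these runs, against 11072, 10566.5 and 10033.5 in the other kept cells. Their UMIs summed to 732014, 407863 and 224751, so 1 UMI weighs more in run 3. The limit for a count of 0 was set at 3 UMIs, which is 4.10, 7.36 and 13.3 counts per 1000000 UMIs (CPM). CPM was taken over the summed UMIs of the members of a run. UMIs are counted at the 3′ ends of transcripts and are not scaled to length, so levels are compared within a gene. Intervals are exact 95% intervals, and like the limits at 0 they cover counting error only. Libraries shared 0 to 6 cell barcodes in each pair, and no member's barcode occurred among the members of another library.

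The share of members among kept cells was 4.44% (3.56 to 5.47) in run 1, 1.14% (0.845 to 1.5) in run 2 and 1.11% (0.723 to 1.64) in run 3. Run 1 thus stood apart, and runs 2 and 3 had overlapping intervals. *Col3a1* and *Col1a1* were both detected in 151 of the 159 members, and the condition on *Ptprc* removed 3 cells. Of the kept cells without *Ptprc*, 7381 had no UMI of the 2 collagens, and 69, 71 and 19 had 10 to under 20, 20 to under 50 and at least 50 per 10000. The members just inside the threshold had 10.4, 11.0 and 11.5 per 10000 in runs 1, 2 and 3, and the cells just outside had 9.40, 9.41 and 7.33. Between 5 and under 10 per 10000 lay 19 cells in run 1, 20 in run 2 and 3 in run 3, so the threshold fell in a filled range in runs 1 and 2.

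**Figure D1:**
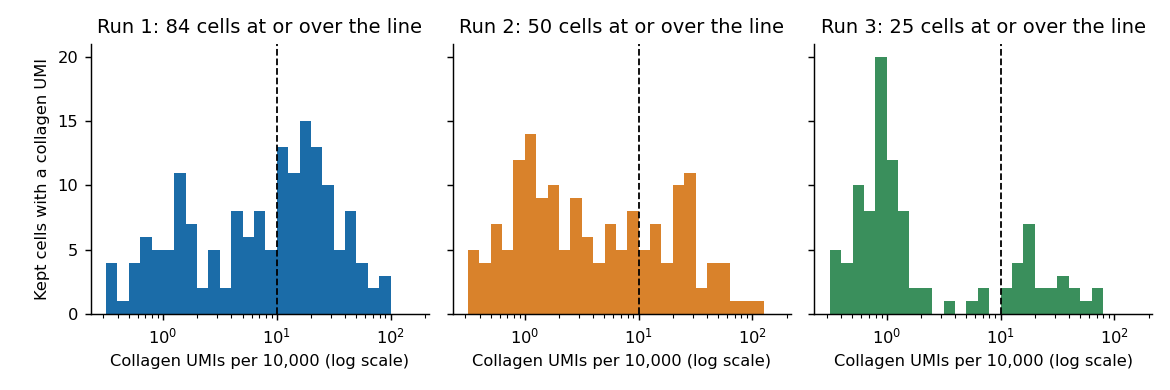
Number of kept cells (vertical) with at least 1 UMI of *Col1a1* or *Col3a1* and none of *Ptprc*, by the UMIs of these collagens per 10000 (horizontal, log scale), 1 panel per run, with the threshold as a dashed line. Run 3 has few cells between the low cells and the 25 members, whereas in runs 1 and 2 the cells run on across the line.

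Genes that the rule did not use changed along the same scale. *Lum*, the gene of the collagen-binding proteoglycan lumican, was found in 0.203% of cells without a collagen UMI, in 14.3% of those at 5 to under 10 per 10000, in 31.9% at 10 to under 20, in 45.1% at 20 to under 50 and in 84.2% of those at 50 and over. *Epcam* went the other way, from 94.6% of cells without a collagen UMI to 38.1%, 17.4%, 8.45% and 0% over the same steps. Of the 159 members, 141 had no *Epcam* UMI, which is 88.1% of them in run 1, 86% in run 2 and 96% in run 3. Among other kept cells 16.3%, 12.4% and 3.34% had none. Most members thus showed no *Epcam* transcript in libraries made after an EPCAM sort, and how they came through the sort was not tested.

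The label was checked against marker lists. The 13 fibroblast markers were all detected in the members of every run and were above the other kept cells in every run, with a summed level of 36633, 40217 and 53254 CPM in runs 1, 2 and 3 against 1968, 859 and 1949 CPM. *Col1a1* and *Col3a1* are 2 of the 13, so their part of the count and of the sum was fixed by the rule. Beside the collagens of the rule, *Dcn*, the gene of the proteoglycan decorin, was at 8602 CPM in run 1, 11244 in run 2 and 16965 in run 3, and *Pdgfra*, the receptor of platelet-derived growth factor on mesenchymal cells, was at 195 CPM in run 1, 353 in run 2 and 307 in run 3. *Pdgfra* had a UMI in 61.9%, 94% and 84% of members and in 1.39%, 0.787% and 0.886% of the other kept cells with an *Epcam* UMI, whose median depth was 13230, 12140 and 10207 UMIs. Thinned to 4000 UMIs per cell, which left out 14 members, these shares were 40.8%, 78.7% and 63.6% of members against 0.5%, 0.75% and 0.5% of 400 such cells drawn from each run. *Dcn* is a weaker mark in these libraries, since 57.1%, 50.6% and 75.3% of the other cells with an *Epcam* UMI had it too, against 90.5%, 98% and 100% of members.

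Markers of most other cell types were scarce, and smooth muscle, keratin and secretory genes were the exceptions. All 8 hematopoietic markers were lower in members than in other kept cells in every run, *Ptprc* (by the rule), *Cd3d* and *Itgam* were at 0, and 76.2% of the 130 UMIs of the list came from 1 cell with 99 UMIs of *Cd74*, the invariant chain of antigen presentation. The endothelial list summed to 51.9, 39.2 and 22.2 CPM against 95.6, 14.2 and 7.5 CPM in other kept cells. At least 3 of its 5 genes were found in 1 member. The pericyte list summed to 124, 53.9 and 26.7 CPM against 11.8, 8.19 and 3.87 CPM. At least 3 of its 6 genes were found in 4 members, and *Rgs5* had UMIs in 3. The Schwann list summed to 94.3, 12.3 and 17.8 CPM against 4.31, 1.72 and 1.65 CPM. At least 3 of its 4 genes were found in 5 members. The pericyte and Schwann lists were thus low but above the other cells in every run. The adipocyte genes *Adipoq* and *Plin1* were at 0. Of 4 mesothelial genes *Msln*, *Upk3b* and *Lrrn4* were at 0, while *Wt1*, a transcription factor, was at 107 CPM in run 1, 56.4 in run 2 and 107 in run 3 and found in 72 members, against 1.15, 0.231 and 0.0267 CPM in other kept cells. All 6 epithelial and all 4 basal genes were lower in members in every run, at 492, 436 and 17.8 CPM for the epithelial list against 4739.6, 5273 and 3605 CPM, and 14 members had at least 3 genes of each of these lists. Of those 14, 12 for each list belonged to the *Krt15* group described with the groups of cells. *Svs2*, a seminal vesicle gene, was at 50.5, 0 and 0 CPM with 36 of the 37 UMIs of its list in 1 cell, and *Pax2* was at 0. The smooth muscle and myofibroblast list, with *Des* found in 108 members, *Myl9* in 89, *Acta2* in 27 and *Cnn1* in 4, summed to 5406, 2295 and 276 CPM against 367, 21.2 and 20.1 CPM, and its part in the results was not tested. Secretory luminal genes gave 169, 1029.8 and 369 CPM against 20467, 73510.4 and 72803 CPM: *Spink1*, the secreted trypsin inhibitor, had UMIs in 123 members at 98.4, 865 and 298 CPM where other cells had 16093, 69168 and 67202 CPM. The part of free RNA in these secretory UMIs was not tested.

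Markers of fibroblast states known from other work were uneven. The reservoir list, of a state found around vessels in many organs, had UMIs of all 7 genes in every run, with *Ly6a* at 3034 CPM in run 1, 2582 in run 2 and 5028 in run 3, *Cd34* at 249, 306 and 556 CPM and *Dpp4* at 10.9, 83.4 and 93.4 CPM. The list of prostate ductal fibroblasts, *Srd5a2*, *Wnt2* and *Rorb*, summed to 1045, 606 and 26.7 CPM in runs 1, 2 and 3 and so was nearly absent from run 3. *Lgr5*, a marker of urethral fibroblasts, had UMIs in 6 members, and its partner *Apoe*, which macrophages and basal cells also make, was in 120. These 2 genes summed to 2684, 1282 and 449 CPM, below the 4213, 1530 and 3788 CPM of other kept cells. Without the *Krt15* group the mean of *Apoe* over runs fell from 1458 to 825 CPM. *Penk* was in 129 members at 1247, 981 and 1379 CPM.

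**Figure D2:**
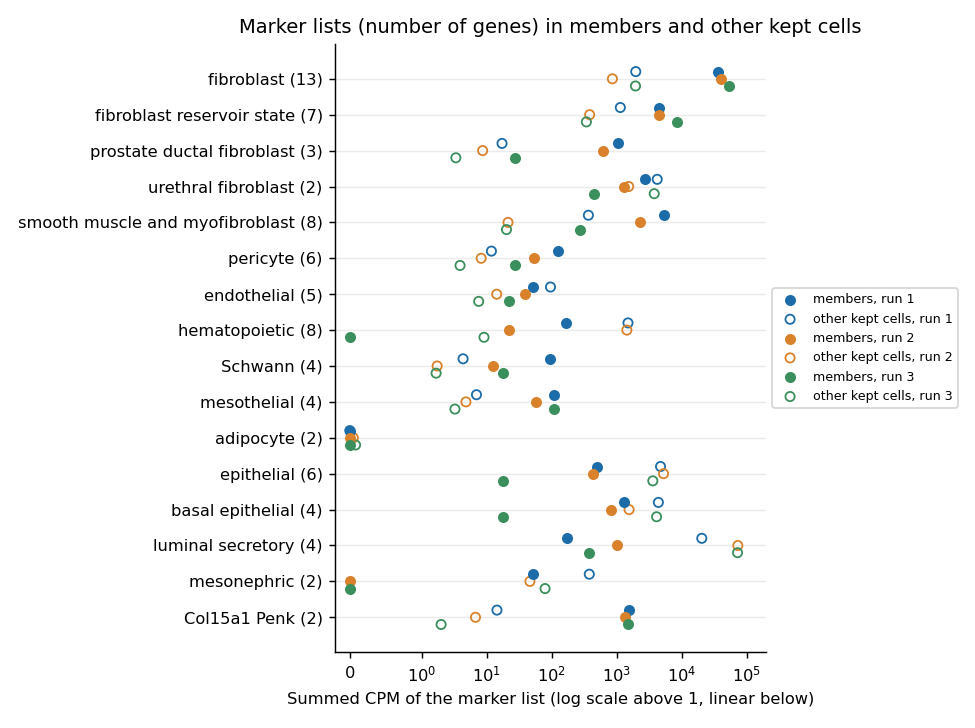
Summed CPM of each marker list, with its number of genes in brackets, in members (filled points) and all other kept cells (open points) of runs 1 to 3 (colours), on an axis that is logarithmic above 1 and linear below. The fibroblast list lies at 36633, 40217 and 53254 CPM in members of runs 1, 2 and 3. The epithelial, basal, secretory and hematopoietic lists lie lower in members than in other cells, and the smooth muscle, pericyte and Schwann lists lie higher.

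The extracellular matrix was covered broadly. Across 16 functional lists with 192 genes, 166 had a mean of at least 10 CPM in members. Of these, 138 (83.1%) were higher in members in every run, where 49.5% of all 8127 genes at that level were, and 122 (73.5%) were at least 2-fold higher in every run against 17.8% of all. The lists were filled with genes known for fibroblasts and the contrast is the one that chose the cells. Nothing is thus read from these shares or from the counts given per list below.

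Of the 7 fibrillar collagen genes, 6 were above 10 CPM. *Col3a1* was at 1884 CPM in run 1, 2246 in run 2 and 2247 in run 3 and *Col1a1* at 716 CPM in run 1, 814 in run 2 and 663 in run 3. *Col1a2*, the partner chain of collagen I that the rule did not use, was at 1489 CPM in run 1, 1743 in run 2 and 1806 in run 3 and in other kept cells at 10.1, 2.8 and 0.827 CPM. These 3 genes varied by under 1.5 times between the runs. The rule set a least summed level of *Col1a1* and *Col3a1* in every run, so nothing is read from their likeness. *Col5a2* of collagen V, which starts fibrils, was at 258, 338 and 320.4 CPM, whereas *Col11a1*, a fibrillar collagen of cartilage and of growing mesenchyme, was at 4.1, 4.9 and 0 CPM and so at or under the limit of detection in all runs. Among the other collagens, *Col6a1* of the microfibrillar collagen VI was at 477, 598 and 458 CPM and *Col4a1* of basement membranes at 369, 407 and 316 CPM. *Col14a1*, a fibril-associated collagen, differed most between runs among the abundant members of its list, with 92.9 CPM in run 1, 191 in run 2 and 445 in run 3, and *Col15a1*, found at the edge of basement membranes, had 302 CPM in run 1, 358 in run 2 and 102 in run 3.

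Proteoglycans and elastic fibre genes had 9 of 10 and 12 of 13 members above the other cells in every run. *Bgn*, the gene of biglycan, was at 1622 CPM in run 1, 1331 in run 2 and 1050.05 in run 3. *Ogn* and *Aspn*, osteoglycin and asporin, were lowest in run 1, at 199, 711 and 819 CPM and at 117, 255 and 369 CPM in runs 1, 2 and 3. *Mfap5*, a microfibril glycoprotein, was at 1060.1 CPM in run 1, 1138 in run 2 and 1989 in run 3, *Fbn1*, the fibrillin of adult microfibrils, at 262, 628 and 801 CPM, and *Fbln1*, the gene of fibulin-1, at 467, 485 and 1219 CPM. *Eln*, elastin itself, was at 284, 282 and 178 CPM. In this list run 3 had the highest values of *Mfap5*, *Fbn1* and *Fbln1* and the lowest of *Eln*. *Fbn2*, a fibrillin of embryonic tissue, was at 2.73, 7.36 and 0 CPM and so at or under the limit of detection.

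Matricellular and adhesive genes were led by *Mgp*, the inhibitor of calcification called matrix Gla protein, at 8641 CPM in run 1, 5477 in run 2 and 5553 in run 3. *Sparc*, which binds collagen, was found in all 159 members and was at 5773 CPM in run 1, 4305 in run 2 and 4783 in run 3. *Igfbp7*, *Igfbp6*, *Igfbp5* and *Igfbp4*, binding proteins of the insulin-like growth factor family, were at 3904, 2317 and 2808 CPM, 1949, 2523 and 2296 CPM, 1388, 2219 and 1006 CPM and 1026, 789 and 1335 CPM in runs 1, 2 and 3. The highest run was run 1 for *Igfbp7*, run 2 for *Igfbp6* and *Igfbp5*, and run 3 for *Igfbp4*. *Igfbp3* was far lower in run 3, at 228, 118 and 8.9 CPM, as was *Ctgf*, a target of mechanical signalling, at 421, 257 and 62.3 CPM. *Tnc*, the gene of tenascin-C, made in wounds and growing tissue, was at 4.1, 7.36 and 0 CPM, at or under the limit of detection.

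The collagen chaperone gene *Serpinh1* was at 1066 CPM in run 1, 777 in run 2 and 592 in run 3, and *Pcolce*, which enhances the trimming of procollagen, at 575, 566 and 729.7 CPM. All 12 genes of collagen processing were detected in every run and 11 were above the other cells in every run; *P4hb*, which every secretory cell uses, was the exception, at 216, 221 and 116 CPM against 215, 246 and 193 CPM. Among proteases and inhibitors, *Timp2* was at 993 CPM in run 1, 1515 in run 2 and 2380.4 in run 3 and *Serping1*, the C1 inhibitor of complement, at 1158, 1184 and 2047 CPM. *Mmp2*, a gelatinase of resting stroma, was at 261, 235 and 156 CPM, while *Mmp3* and *Mmp9*, proteases of inflamed tissue, were at 0 in all runs.

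Complement genes were detected as a whole set: all 6 were above the other cells in every run. *C3*, the central component, was at 458 CPM in run 1, 434 in run 2 and 1010.01 in run 3 against 1.84, 1.85 and 1.92 CPM. Of 9 chemokine and cytokine genes 8 were above the other cells in every run. *Cxcl14* was at 1275 CPM in run 1, 1586 in run 2 and 445 in run 3 and *Cxcl12*, which draws leukocytes and stem cells to stroma, at 310.1, 129.9 and 169 CPM. The monocyte attractants *Ccl2* and *Ccl7* were highest in run 3, at 94.3, 196 and 543 CPM and 198, 115 and 699 CPM. Their means over runs, 278 and 337 CPM, were 127 and 33.5 CPM among members under 7500 UMIs, and that of *Ccl2* was 126 CPM among members with 1 sample barcode.

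Paracrine ligands were mostly low. Of 23 genes, 3 had a mean of at least 100 CPM in members. *Igf1*, insulin-like growth factor 1, was at 934 CPM in run 1, 802 in run 2 and 2127 in run 3, *Wnt2* at 474 CPM in run 1, 186 in run 2 and 22.2 in run 3 and *Rspo3*, an enhancer of WNT signalling, at 164, 120.1 and 66.7 CPM. *Wnt10a* was at 182, 80.9 and 0 CPM and *Bmp4* at 123, 139.8 and 31.1 CPM. *Wnt2* and *Wnt10a* were thus highest in run 1 and at or near 0 in run 3. *Fgf10*, the mesenchymal factor on which prostate budding depends, was at 26, 58.8 and 44.5 CPM and *Fgf7* at 41, 29.4 and 44.5 CPM; both were above the limit of detection in each run. *Igf2* and *Wnt2b* were at 0. Secreted antagonists were led by *Sfrp1* and *Sfrp2*, which bind WNT proteins, at 449, 302 and 485 CPM and 275, 191 and 35.6 CPM; *Grem1*, an inhibitor of bone morphogenetic proteins, was at 0.

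Of the receptors, *Fgfr1* was at 148, 154 and 156 CPM and *Tgfbr2* at 109, 147 and 227 CPM. Genes of the hedgehog response, by which stroma answers epithelial ligands, were low, *Ptch1* at 46.4, 27 and 17.8 CPM and *Gli1* at 26, 17.2 and 17.8 CPM. *Nr3c1*, the glucocorticoid receptor, was at 101, 101 and 97.9 CPM, and *Hsd11b1*, which regenerates active glucocorticoid, at 84.7, 101 and 116 CPM against 0.874, 0.426 and 0.16 CPM. *Esr1*, estrogen receptor alpha, was at 15, 7.36 and 4.45 CPM. *Srd5a2*, the 5α-reductase that makes dihydrotestosterone, was at 13.7, 12.3 and 0 CPM.

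Mesenchymal transcription factors were present at moderate levels, with *Tcf4* at 319.7, 329 and 169 CPM, *Tcf21* at 325, 184 and 156 CPM, *Prrx1* at 156, 152 and 218 CPM, *Zeb1* at 245, 159 and 75.6 CPM and *Zeb2* at 150.3, 105 and 151 CPM. *Runx1*, whose promoter drives the reporter, was at 26, 61.3 and 31.1 CPM in members and at 61.7, 76.4 and 69.3 CPM in other kept cells. *Hoxb13*, a prostate epithelial regulator, was at 23.2, 39.2 and 0 CPM against 329, 328 and 308 CPM. Immediate early genes, which rise when tissue is dissociated, were high in both: *Fos* was at 4713, 3182 and 3818 CPM in members and 2163, 630.3 and 835 CPM in other cells, and *Junb* at 3709, 3236 and 3333 CPM and 2439, 1119.9 and 1207 CPM. No proliferation gene reached 100 CPM, and *Mki67* was at 10.9, 2.45 and 0 CPM.

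By the lowest of the 3 runs, the largest folds over other kept cells belonged, apart from the genes of the rule and those with means under 100 CPM, to *C7*, *Clec3b*, *Lgi2*, *Sult1e1*, *Dpt*, *Pcolce2*, *Col6a5*, *Dpep1*, *Tnfaip6* and *Myoc*. Among them are *Col6a5*, a collagen VI gene, *C7*, a late complement component, and *Sult1e1*, which adds sulfate to estrogens. *Dpt*, the gene of dermatopontin (GRCm38, chromosome 1, 164796644 to 164824266), was at 331 CPM in run 1, 794 in run 2 and 1157 in run 3 against 0.655, 0.439 and 0.24 CPM. *Sult1e1* was at 396 CPM in run 1, 922 in run 2 and 2456 in run 3 against 0.749, 1.4 and 1.71 CPM. *C7* was at 87.4 CPM in run 1, 267 in run 2 and 423 in run 3 against 0.0936, 0.268 and 0 CPM. All 10 were found in a part of the members, from 25 cells for *Myoc* to 73 for *Dpt*.

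The members of the 3 runs did not have 1 common profile. *Acta2*, smooth muscle actin, was at 2124 CPM in run 1, 738 in run 2 and 4.45 in run 3, and *Tagln*, transgelin, was at 2063 CPM in run 1, 826 in run 2 and 17.8 in run 3. *Wif1*, a secreted inhibitor of WNT, was at 1048 CPM in run 1, 704 in run 2 and 0 in run 3, and *Rorb*, a nuclear receptor (chromosome 19, 18930605 to 19111196), at 557 CPM in run 1, 407 in run 2 and 4.45 in run 3. These genes were near or at 0 in run 3. *Apod*, apolipoprotein D, went in the reverse order, with 633 CPM in run 1, 1856 in run 2 and 6140.1 in run 3, like *Gpx3*, a secreted peroxidase, with 488 CPM in run 1, 691 in run 2 and 3061 in run 3, and *Scara5*, a ferritin receptor, with 34.2 CPM in run 1, 196 in run 2 and 325 in run 3. Mice and library both change with the run, and their parts cannot be told apart. Runs 1 and 2 also held castrated mice. In run 1, 18 kept cells were assigned to castrated mice and 0 of them were members, while 28 of its 84 members were assigned at all. The part of castration in these differences was not tested. With run 1 left out, the mean over runs moved by over 1.5 times for 10 of the listed genes with means of 100 CPM and over (*Acta2*, *Apoe*, *Ctgf*, *Igfbp3*, *Krt14*, *Krt15*, *Myl9*, *Rorb*, *Tagln* and *Wnt2*), without run 3 for *C4b*, *Ccl11*, *Ccl2*, *Ccl7*, *Col14a1*, *Fbln1*, *Fbln2* and *Fn1*, and without run 2 for *Hspa1a* and *Spink1*. Among members under 7500 UMIs the means of *Acta2*, *Tagln*, *Apoe*, *Col14a1*, *Fbn1*, *Fn1*, *Bmp1*, *Lox*, *Anxa3*, *Krt14*, *Krt15* and *Krt18* were also lower by that much and those of *Hsd11b1* and *Ctgf* higher, and among assigned members those of *Lum*, *Eln*, *Mfap4*, *Postn*, *Pi16*, *Loxl1* and *Ctgf* were lower and those of *Krt14* and *Krt18* higher.

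Clustering of the 159 members after centring by run gave 5 groups, which are named here by a gene with a high fold over the other members. These genes were chosen after their values were seen, and the clusters were made from them, so levels between groups are descriptions without a test. The *Cxcl13* group had 56 cells (22, 17 and 17 in runs 1, 2 and 3), the *Cxcl14* group 44 (27, 10 and 7), the *Rorb* group 30 (20, 10 and 0), the *Ctla2a* group 16 (7, 8 and 1) and the *Krt15* group 13 (8, 5 and 0). As shares of the members of a run, the *Rorb* group had 23.8% (15.2 to 34.3), 20% (10.0 to 33.7) and 0% (0 to 13.7), and the *Cxcl13* group 26.2% (17.2 to 36.9), 34% (21.2 to 48.8) and 68% (46.5 to 85.1). The intervals of the *Cxcl13* group in runs 1 and 3 did not overlap, but they cover counting error only, and each run is 1 pool of mice.

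**Figure D3:**
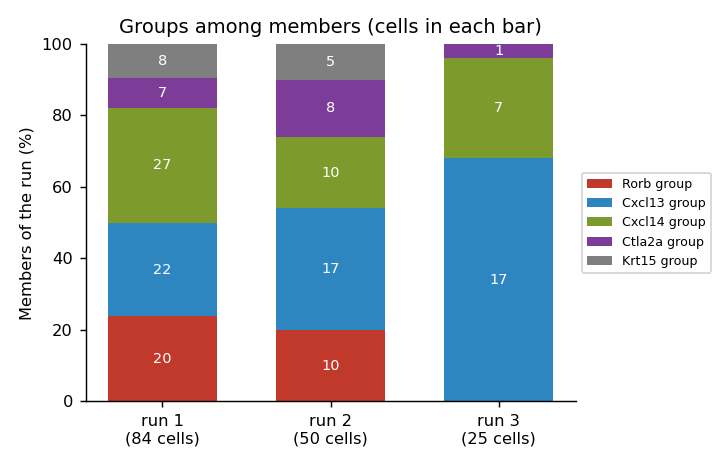
Share of the members of each run (percent) that fell into each of the 5 groups, with the number of cells in each bar. The *Rorb* and *Krt15* groups have no cell in run 3, and the *Cxcl13* group has 17 of its 25 cells.

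The *Rorb* group had WNT ligands in common. Its level of *Rorb* was 1875 and 1566 CPM in runs 1 and 2, found in all 30 cells. *Wnt2* (chromosome 6, 17988940 to 18030585) was at 1348 and 585 CPM and found in 28 of them, *Wnt6* was at 589 and 286 CPM and *Wnt10a* at 575 and 340.4 CPM. These ligands were lower in run 2 than in run 1 but present in both. *Penk*, the enkephalin precursor, was at 3922 and 1620.3 CPM, *Wif1* over both runs at 2664 CPM, *Adm*, the vasodilator adrenomedullin, at 1048 CPM and *Mgp* at 16584 CPM. The group lacked several genes of the other members: *Lum*, *Ogn*, *Aspn*, *Fn1*, *Postn*, *Sparcl1* and *Mfap4* had 0 UMIs in its 30 cells, and *Dpt* had 2 UMIs in 1 cell. Of the prostate ductal fibroblast markers *Srd5a2* had 8 UMIs in 6 of its cells, 36.4 CPM, while *Rorb* and *Wnt2* had 389 and 240 UMIs.

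The *Cxcl13* group was rich in complement, chemokines and *Dpt*. *Dpt* was at 1065, 2026 and 1352 CPM in runs 1, 2 and 3 and *C3* at 1554, 1315 and 1298 CPM. *Sult1e1* was at 1377, 2447 and 2867 CPM, and *Clec3b*, which binds plasminogen, at 1169, 1780.3 and 1214 CPM. *Ccl7* was at 696 CPM, *Ccl2* at 459 CPM, *Gpx3* at 2320.2 CPM and *Fn1*, fibronectin, at 501 CPM in 29 of 56 cells. *Cxcl13* itself, a chemokine that attracts B cells, was at 2827, 1061 and 198 CPM and came from few cells: 18 members had a UMI, and 3 of them held 80.2% of its 701 UMIs. This group also held the 4 cells with at least 3 pericyte genes and the 5 with at least 3 Schwann genes, whose part in its profile was not tested.

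Contractile genes marked a part of the *Cxcl14* group. *Cxcl14* (chromosome 13, 56288643 to 56296551) was at 3242, 5876 and 1789 CPM in runs 1, 2 and 3. *Acta2* was at 4810.2, 3422 and 0 CPM and *Tagln* at 4722, 3699 and 22.4 CPM, with an *Acta2* UMI in 12 and a *Tagln* UMI in 23 of 44 cells. Of the 32 members with at least 3 of 8 smooth muscle and myofibroblast genes, 18 were in this group. *Myh11*, the myosin that defines smooth muscle, had 102 UMIs in 13 members, 7 of them in this group, against 1857 of *Acta2*, and the 10 members highest in *Acta2* held 94.2% of it. *Il33*, an alarmin, was at 439 CPM and *Igfbp7* at 5727 CPM. *Rorb* and *Wnt2* were also found in 24 and 21 of these cells.

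The *Ctla2a* group had the highest levels of several matrix genes among the 5 groups. *Ctla2a*, a cysteine protease inhibitor, was at 6315, 9214 and 1171 CPM, the last from 1 cell. *Dcn* was at 19757, 20736 and 29786 CPM, and *Gsn*, the actin-severing protein gelsolin, at 37514 CPM against 3890.2 to 15861 CPM in the other groups. *Mfap4* was at 1666 CPM, *Eln* at 1032 CPM, *Col6a3* at 1023 CPM and *Apod* at 5255 CPM. *Myoc*, myocilin, was at 1031, 646 and 1391 CPM and came from 8 of 16 cells. *Thy1*, a surface marker of many fibroblasts, had no UMI in the group and was at 533 CPM in the *Rorb* group.

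The *Krt15* group goes against the label. Its 13 cells had a median of 18249 UMIs, against 6537.5 to 8011 in the other groups, 11 of them had an *Epcam* UMI, and 3 carried more than 1 sample barcode. *Krt15*, *Krt14* and *Krt5*, keratins of basal cells, were at 3096, 1380.3 and 539 CPM, and *Krt18*, a luminal keratin, at 709 CPM. The 11 fibroblast markers outside the rule were detected in it too, with *Dcn* at 5186 and *Mgp* at 4808 CPM. Whether these are 2 cells in 1 droplet was not tested. Without them 146 members were left, 76, 45 and 25 per run, and 9 listed genes of 258 moved by more than the spread of runs. *Svs4* and *Svs5*, seminal vesicle genes that lead the group, came from 1 and 2 of its cells.

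Markers of the *Rorb* group and *Dpt* were seldom found in the same cell. A *Rorb* UMI was found in 53.6%, 36% and 4% of members in runs 1, 2 and 3, against 4.37%, 6.90% and 2.85% of other kept cells with an *Epcam* UMI, so the share in run 3 is not above that background. *Dpt* was in 25%, 62% and 84% of members, against 0.198%, 0.210% and 0.233%. Thinned to 4000 UMIs, the shares of members were 55.3%, 38.3% and 0% for *Rorb* (1.5%, 1.25% and 0.25% of other cells) and 25%, 55.3% and 86.4% for *Dpt* (0.25%, 0% and 0.25%). The order of the runs was thus the reverse for the 2 genes.

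Of 64 members with *Rorb*, 54 also had *Wnt2* (84.4% of *Rorb* and 88.5% of the 61 *Wnt2* cells), whereas 6 had *Dpt* (9.38% of *Rorb* and 8.22% of the 73 *Dpt* cells). There were 28 members with neither *Rorb* nor *Dpt*. Within run 1, 40 of 45 *Rorb* cells had *Wnt2* and 2 had *Dpt*, and within run 2, 14 of 18 had *Wnt2* and 4 had *Dpt*. After thinning, 78.6% of *Rorb* cells had *Wnt2* and 7.14% had *Dpt*. All 18 *Cxcl13* cells had *Dpt* and none had *Rorb*. *Pi16*, known from a fibroblast state shared by many organs, was less split by detection: it was found in 30 of the 64 *Rorb* cells and in 46 of the 73 *Dpt* cells. After thinning it was in 33.9% of *Rorb* cells and 53.0% of *Dpt* cells. Its level was lower in the *Rorb* group, at 54.8 and 123 CPM in runs 1 and 2, than in the *Cxcl13* group, at 494 and 886 CPM.

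**Figure D4:**
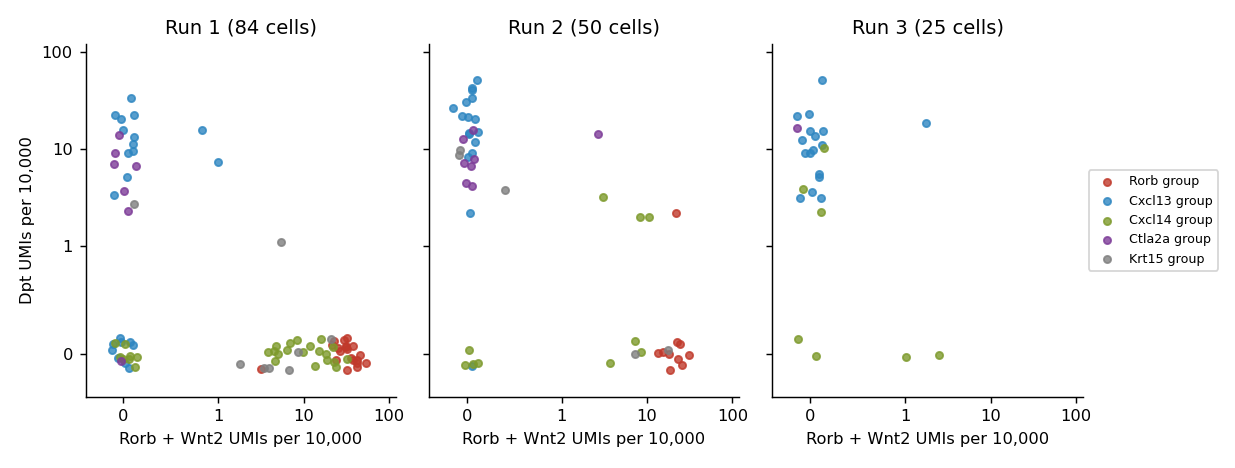
*Rorb* plus *Wnt2* UMIs per 10000 (horizontal) against *Dpt* UMIs per 10000 (vertical) in each member, 1 panel per run, coloured by group, on axes that are linear below 1 and logarithmic above, with a small random shift to separate points. Most cells lie along 1 axis or the other, and in run 3 only the arm with *Dpt* is well filled.

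Sample barcodes placed 64 of the 159 members in 1 sorted population, 60 intact and 4 castrated. Another 71 had no barcode above its threshold, which is 44.7% of members but 21.5% of all kept cells, 16 had several and 8 were under the additional threshold. The intact members were 39 from the AP, 10 from the DLP and 11 from the VP, and 24 of the AP members were from run 1. As shares of kept intact cells, AP members made up 3.74% (24 of 641), 1.34% (9 of 672) and 0.96% (6 of 625) in runs 1, 2 and 3. VP members made up 2.04% (2 of 98), 1.38% (6 of 435) and 0.915% (3 of 328), and DLP members 2.99% (2 of 67), 1.59% (2 of 126) and 0.833% (6 of 720), RFP- cells alone in runs 1 and 2. The AP and VP shares lay close together in runs 2 and 3. Their means were 2.01% ± 1.51 (SD, n = 3) for the AP and 1.44% ± 0.566 for the VP, a difference of 0.57 percentage points, higher in the AP in 2 of 3 runs, with p = 0.7 in an exact two-sided permutation test, for which the smallest p is 0.1. The difference rests on run 1, and without run 1 it was 0.00267 points. Expression could not be compared between AP and VP, since no run but run 2 had over 5 members of both (9 and 6).

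The sorting gate was not part of the rule, so the share of members could be tested between gates. In intact RFP+ cells it was 3.49% (19 of 545), 0.545% (4 of 734) and 0.907% (9 of 992) in runs 1, 2 and 3. Among intact RFP- cells members made up 3.45% (9 of 261), 2.61% (13 of 499) and 0.881% (6 of 681). The gates were level in runs 1 and 3 and RFP- cells had the higher share in run 2. The mean was 1.65% ± 1.60 (SD, n = 3) for RFP+ and 2.31% ± 1.31 for RFP-, a difference of -0.665 percentage points with p = 0.8 in an exact two-sided permutation test, for which 3 runs a side allow no p below 0.1. Paired within runs the exact p was 1, with 0.25 as the smallest possible. The difference rests on run 2, and without run 2 it was 0.0321 points. DLP calls were RFP- alone in runs 1 and 2, so the gates held unlike lobes there. In the VP, members were 0 of 79, 1 of 282 and 0 of 198 RFP+ cells in runs 1, 2 and 3. Among VP RFP- cells they were 2 of 19, 5 of 153 and 3 of 130. In the AP they were 19 of 466, 3 of 452 and 4 of 388 RFP+ cells. AP RFP- cells had 5 of 175, 6 of 220 and 2 of 237. The gates were not tested within a lobe.

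Expression in the 2 gates was compared in intact members of runs 1 and 3, where each sum had at least 5 cells (19 RFP+ and 9 RFP- cells, then 9 and 6). Sums of at least 10 cells, as first designed, were not reached in 2 runs. In edgeR's quasi-likelihood test of 1081 genes, 0% passed an adjusted p of 0.05 in either direction, 24 had an unadjusted p under 0.05, and DESeq2 called 1. On simulated counts with these library sizes and a fixed spread, the same fit recovered 9% of 2-fold changes and 72% of larger ones. The changed genes all had means over 200 CPM, and no difference between runs was simulated. The share that would be recovered in the real sums, which differ between runs, was thus not measured. Most 2-fold differences would thus be missed. With run as a block edgeR called 0, with 82 genes under an unadjusted 0.05 and a smallest adjusted p of 0.194, against 0.9997 without the block. All assigned RFP+ members of run 1 were from the AP, so gate and lobe cannot be told apart there. Over runs 1 to 3, intact RFP+ and RFP- members numbered 12 and 9 in the *Cxcl13* group and 11 and 5 in the *Cxcl14* group. They numbered 3 and 11 in the *Rorb* group, 0 and 2 in the *Ctla2a* group and 6 and 1 in the *Krt15* group. In run 1, 5 of the 19 RFP+ members were in the *Krt15* group, which goes against the label. The gates thus hold unlike groups, whose part in the values was not tested. The 2 gates of a run share its mice and its library. Without the block the fit takes differences between runs as error, so its p-values measure the spread between pools of mice and between libraries.

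In the fit without the block, the genes with the smallest p on each side did not pass the adjusted threshold. *Pi16* was at 77.1 CPM in RFP+ and 699 CPM in RFP- members of run 1 and at 44.1 and 983 CPM in run 3, a log2 difference of -3.66 (SE 0.58, edgeR adjusted p = 0.9997). All 45 *Pi16* UMIs of the RFP- members in run 1 came from 1 of 9 cells, and in run 2, outside the fit, RFP+ members had 438.5 and RFP- members 305 CPM. *Igfbp5* was at 703 and 2952 CPM in run 1, 176 and 2602 in run 3, and 1608 and 2472 in run 2, lower in RFP+ members in each. *Sfrp1* was at 428 against 186 CPM in run 1 and 764 against 218 CPM in run 3, but at 83.5 against 315 CPM in run 2, outside the fit. *Prss23*, *Fstl1* and *Heg1* were the other genes named as lower, and *H2afz*, *Hspb1*, *Il33* and *Ppp1r15a* the others named as higher. *Dcn* differed by -0.16 (SE 0.80) and *Col1a1* by 0.19 (SE 0.49) on the log2 scale, errors that leave a wide range.

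Castrated members could be described only in run 2, with 4 cells (18528 UMIs) against 17 intact cells (146203 UMIs) and no replicate, so no test was made. Exact Poisson intervals lay apart, castrated higher, for 41 of 2355 genes with at least 10 UMIs in the larger sum (1.74%) and, castrated lower, for 49 (2.08%). Among 138 listed genes 14 were higher and 15 lower. Of the 4 castrated cells, 3 fell into the *Ctla2a* group and 1 into the *Cxcl13* group, while none was in the *Rorb* or *Cxcl14* group, so the values compare few cells of different groups; 3 were AP RFP+ and 1 was VP RFP-.

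Higher in the castrated cells were *Dpt*, at 1619 CPM (1092 to 2311) in the castrated sum against 349 CPM (259.7 to 459) in the intact sum, and *Gsn*, at 25205 CPM (22971 to 27598) in the castrated sum against 12161 CPM (11602 to 12739.9) in the intact sum. *Myoc* was at 1403 CPM (917 to 2056) in the castrated sum against 103 CPM (57.4 to 169) in the intact sum, with 12, 7, 0 and 7 UMIs in the 4 cells. *Dpt* had 4, 23, 1 and 2 UMIs in them, so the value rests mostly on 1 cell, and 1 cell also held 16 of 17 UMIs of *Spon2*, all 11 of *Scara5* and 22 of 26 of *Clec3b*. *Igfbp6* was at 6639 CPM (5517 to 7921) in the castrated sum against 3249 CPM (2963 to 3555) in the intact sum. The rule also named *Flrt2*, *Cd55*, *Lum*, *Prss23* and *Appl1* as higher; *Prss23* had a UMI in all 4 cells.

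Lower was *Mgp*, at 1673 CPM (1137 to 2375) in the castrated sum against 8919 CPM (8442 to 9417) in the intact sum. *Cxcl14* had 1 UMI in the castrated cells and was at 54 CPM (1.37 to 301) in the castrated sum against 2852 CPM (2585 to 3139.5) in the intact sum. *Igf1* was at 324 CPM (119 to 705) in the castrated sum against 937 CPM (787 to 1108) in the intact sum, and *Igfbp7* at 1187 CPM (744 to 1798) in the castrated sum against 3146 CPM (2865 to 3447) in the intact sum. *Wif1*, *Apoe*, *Ifitm1*, *Rorb* and *Defb50* had no UMI in the castrated cells, while intact members had 1382, 1135, 704.5, 650 and 554 CPM. For 0 UMIs in the castrated sum the limit of 3 UMIs is 162 CPM, and the exact interval reaches 199 CPM. *Mfge8*, *Mt2* and *B2m* completed the 10 named as lower. *Wnt2* was likewise at 0 UMIs against 308 CPM.

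The explant library gave a view of embryonic cells under the same rule: 142 of 6608 kept cells met it, with 1158610 UMIs. Of these 142 cells, 118 had no *Epcam* UMI. Their basal epithelial list summed to 1585 CPM, against 1291, 829 and 17.8 CPM in adult members of runs 1, 2 and 3. The epithelial list summed to 569 CPM against 492, 436 and 17.8 CPM, while the secretory list was at 0. The part of epithelial RNA in the explant values was not tested. Adult runs and explant differ in stage, culture and library, which cannot be told apart with 1 explant library, so values stand side by side. Of 174 listed genes with at least 50 CPM on 1 side, 53 were at least 3-fold higher in the lowest adult run, where 7.24% of all 3953 such genes were, and 12 were at least 3-fold higher in the explant than in the highest adult run, where 5.74% of all were. The collagens of the rule passed 3-fold on neither side: *Col1a1* was at 1123 CPM (95% interval 1063 to 1186) and *Col3a1* at 1318 CPM (95% interval 1253 to 1386) in the explant cells.

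Adult cells were higher in all 6 complement genes, and *C3* and *Pi16* had no UMI in the explant cells, where the limit of 3 UMIs is 2.59 CPM. *Dpt* was at 1.73 CPM (95% interval 0.209 to 6.24) in the explant, *Igfbp6* at 21.6 CPM (95% interval 14 to 31.9) and *Serping1* at 21.6 CPM (95% interval 14 to 31.9), where the lowest adult runs had 331, 1949 and 1158 CPM. *Gsn* was at 209 CPM (95% interval 183 to 237), *Dcn* at 1027 CPM (95% interval 969.6 to 1087) and *Mgp* at 458 CPM (95% interval 420.1 to 499). *Hsd11b1*, *Ccl2*, *C4b* and *Wisp2* had no UMI there.

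Explant cells were higher by this measure in 12 listed genes, which came from several lists. Of the 13 elastic fibre genes *Mfap2* and *Fbn2* were higher in the explant, and *Mfap5*, *Fbln5*, *Efemp1*, *Ltbp4* and *Fbn1* in the adult runs. *Mfap2* was at 518 CPM (95% interval 477 to 561) against 34.2, 58.8 and 71.2 CPM in the adult runs, and *Fbn2* at 204 CPM (95% interval 179 to 231) against 2.73, 7.36 and 0 CPM. *Nog*, which binds bone morphogenetic proteins, was at 119.97 CPM (95% interval 101 to 142), *Foxf1*, a mesenchymal regulator downstream of hedgehog, at 82.9 CPM (95% interval 67.1 to 101) and *Snai2* at 107 CPM (95% interval 89 to 128). *Top2a*, a gene of dividing cells, was at 167 CPM (95% interval 144 to 192) against 19.1, 2.45 and 4.45 CPM, together with *Mki67*, *Cdk1* and *Tyms*. *Col11a1*, *Mmp11* and *Krt19* were the remaining 3 of the 12. *Rorb* was at 20.7 CPM (95% interval 13.3 to 30.8) and *Wnt2* at 12.9 CPM (95% interval 7.25 to 21.4) in explant cells, where adult run 3 had 4.45 and 22.2 CPM.

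**Figure D5:**
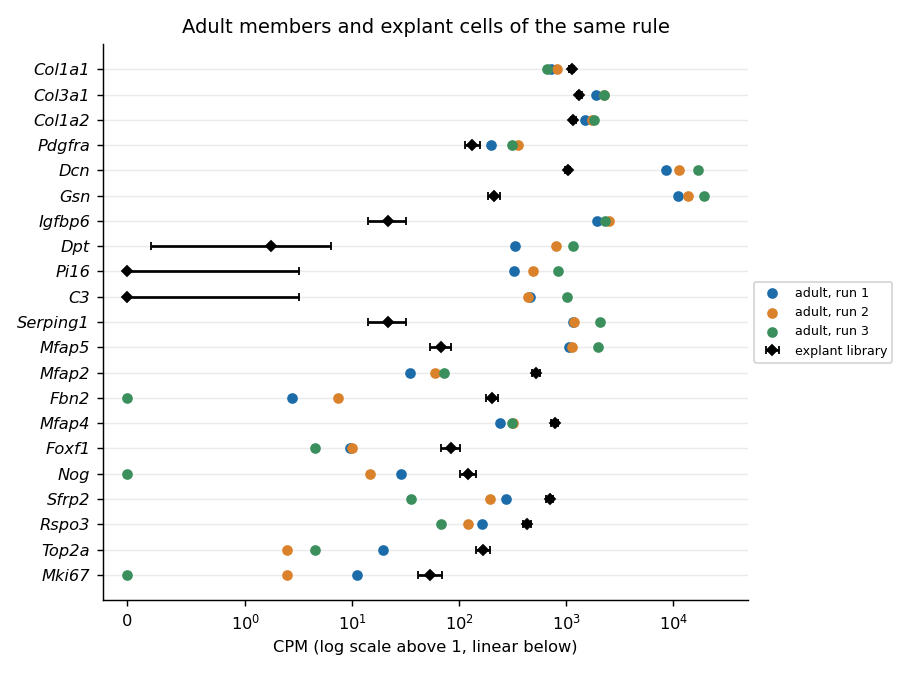
CPM of 21 listed genes in members of the 3 adult runs (coloured points) and in explant cells of the same rule (black diamonds with exact 95% Poisson intervals), on an axis that is logarithmic above 1 and linear below. *Col1a1* and *Col3a1*, by which both sets of cells were chosen, lie close together. *Dpt*, *Pi16* and *C3* lie far to the left in the explant, and *Fbn2*, *Nog* and *Top2a* lie to the right.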

How the data were processed

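The deposited matrices hold raw UMI counts per gene and cell, which the authors made with Cell Ranger 3.1.0 on mm10 from 10x 3′ libraries; the submitters' processing notes also name Seurat 3.1.5. MULTI-seq barcodes were called as in HTODemux, with the study's additional thresholds. Cells with 750 to 7500 genes and under 10% mitochondrial UMIs were kept. Scrublet marked 16 of the 8532 kept cells and no member, too few to have worked, so no doublet was removed, and cells with several barcodes are the other sign. UMIs of members were summed per run and given as CPM. Intervals were exact (95%). Groups came from Leiden clustering (scanpy 1.11.5, igraph 0.11.9) of 1500 variable genes, 15 components and 15 neighbours at resolution 0.6. Gates, and later AP and VP, were compared by an exact permutation test over runs, and gates also by edgeR 4.0.16 (R 4.3.3), after a test on simulated data, with DESeq2 1.42.0 as an alternative. Sums of at least 10 cells were not reached in 2 runs, so sums of at least 5 were used, and expression in AP against VP could not be fitted. Coordinates are of GRCm38.

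The members and the gene lists were chosen with earlier results of these data known. Genes were named as the 5 highest of each list and those at 0, the 10 largest folds, up to 10 each way for castration and up to 5 each way for a test; other named genes were chosen after their values were seen. Some listed genes are not reported here.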

Additional observations from a re-analysis of the deposited data

How the results depend on the processing

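The number of members depends on the limits set. At 20 collagen UMIs per 10000 there were 45, 33 and 12 members in runs 1, 2 and 3, with a limit of 7500 UMIs per cell 43, 24 and 9, and among cells with 1 sample barcode 28, 21 and 15. At 5 per 10000 there were 103, 70 and 28, and without cells that had an *Epcam* UMI 74, 43 and 24. The RFP+ minus RFP- difference in the share of members ranged from -1.02 to 0.0321 percentage points when each run was left out, changing sign without run 2, and pairing the gates within a run left it at -0.665. The AP minus VP difference, added after seeing the data, ranged from 0.00267 to 0.874 points in the same way, with an exact paired p of 0.5. Alternatives of the edgeR comparison of gates and of the groups were chosen after seeing the data. Without a filter on low counts edgeR called 18 genes between the gates and DESeq2 called 1, against 0 in the comparison reported and 0 with a replicate block; the cause was not tested. Clustering at resolution 1.0 gave 8 groups in place of 5, where 20 of the 30 cells of the *Rorb* group stayed together, 32 of 56 of the *Cxcl13* group and 20 of 44 of the *Cxcl14* group. With 10 neighbours 25 of 56 of the *Cxcl13* group stayed together, and at resolution 0.3 the *Cxcl13* and *Ctla2a* groups fell into 1 cluster of 73 cells. Of 258 listed genes, 59 moved by more than the spread of runs under the limit of 7500 UMIs and 39 at 20 per 10000.

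With 159 cells in 3 runs, 4 castrated cells and pooled mice, small differences were not detectable. For a gene at 0 in run 3 the limit of 3 UMIs is 13.3 CPM.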
